A study of Mus musculus with 11 samples.

Results

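The 10 genes Gpnmb, Trem2, Lgals3, Mmp12, Cd9, Cd63, Spp1, Lpl, Itgax and Fabp5 are known from lipid-associated macrophages and are described here across 11 liver libraries. They were picked by symbol, and the set was drawn up because Gpnmb, Trem2, Lgals3 and Mmp12 had been seen to be much higher after a microRNA mimic. All 10 were measured, out of 13636 genes. Because these values chose the set, comparisons with the mimic are given as a description, with no test. The liver has resident macrophages, the Kupffer cells, and in fat-laden or injured liver it also holds macrophages with a lipid-handling programme. On these cells the receptor TREM2 binds lipids, lipoproteins and cell debris and signals through the adaptor TYROBP, and the programme includes genes of lysosomes, lipid uptake and matrix turnover. Spp1, Lpl, Cd9, Cd63 and Fabp5 are also made by other cells, so the set is named for the programme and not for an isolated cell type.

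Whole liver RNA of male C57BL/6J mice, a common inbred strain, was sequenced. All mice were put on a Western diet, which is rich in fat and cholesterol, when 8 weeks old, and 1 month later a course of injections began that lasted 6 weeks. The mimic group (4 libraries) received a mimic of the microRNA miR-30c and the scramble group (3 libraries) a scramble oligomer, each at a dose that began at 2.5 mg/kg, was raised to 5.0 and ended at 7.5 mg/kg. The PBS group (4 libraries) received PBS, the buffered saline without an oligomer. Comparing mimic with scramble asks what the microRNA sequence adds to an injected oligomer, and comparing scramble with PBS asks what an oligomer does by itself. No group on a standard diet was analysed here, and the diet is shared by all 3 groups. Nothing in the labels ties a library to a mouse of its own, so a p-value measures the spread between libraries, which may be technical.

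Between 39705157 and 101380174 reads per library were inferred from the deposited values, and all read numbers given here are inferred in this way. The unit is scaled CPM, in which each count is taken relative to the size of its library and rescaled by the authors with 1 factor per library. Hepatocyte genes such as Cyp2e1 (3666, 5821 and 5293 scaled CPM on average in mimic, scramble and PBS livers) marked the tissue as liver in all groups. A few libraries stood apart. The columns of mimic replicates 1 and 4 summed to 635097 and 605536, against 871437 to 1504311 in the other 9. PBS replicate 2 had a sum of 8 dendritic cell genes of 403, against 66.1 to 116 in the other PBS libraries. Changes of the 10 genes between mimic and control livers are given with and without them.

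miR-30c represses messages that pair with its seed, bases 2 to 8 of the mature strand. The seed is shown in capitals in the RefSeq sequence (GRCm38.p6), since it is what a target would have to match. The sequence of the injected oligomers is not used here.

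mmu-miR-30c-5p: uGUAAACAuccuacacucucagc

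The 7-base match to this seed, TGTTTAC, was in the 3′ UTR of 0 of the 10 genes, taken from the transcript with the longest coding sequence. It was in the 3′ UTRs of 1628 of 11285 genes of the table, or 14.4%. These letters say nothing of pairing elsewhere in the messages.

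Promoter windows of 300 bases (250 before and 50 after a RefSeq start, GRCm38.p6) were at hand for 8 of the 10 genes, in 10 windows, and for 9447 genes of the table in 12069 windows. Lpl and Fabp5 were not among them. Because several of the genes were high in the same libraries, the windows were searched on both strands for motifs of myeloid and lysosomal factors. The AP-1 motif TGANTCA was in 4 of the 10 windows and in 5.49% of the 12069. It is in capitals in the 4 windows that hold it, together with the M-box TCATGTG of MITF where that occurs.

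Gpnmb, chr6:49036268-49036567, plus strand: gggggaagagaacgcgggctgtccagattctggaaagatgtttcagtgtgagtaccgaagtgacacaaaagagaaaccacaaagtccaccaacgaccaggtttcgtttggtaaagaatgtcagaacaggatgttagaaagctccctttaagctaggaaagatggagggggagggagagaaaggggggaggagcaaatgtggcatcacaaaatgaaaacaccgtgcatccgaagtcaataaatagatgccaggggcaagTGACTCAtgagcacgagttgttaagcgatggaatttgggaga
Trem2, chr17:48346151-48346450, plus strand: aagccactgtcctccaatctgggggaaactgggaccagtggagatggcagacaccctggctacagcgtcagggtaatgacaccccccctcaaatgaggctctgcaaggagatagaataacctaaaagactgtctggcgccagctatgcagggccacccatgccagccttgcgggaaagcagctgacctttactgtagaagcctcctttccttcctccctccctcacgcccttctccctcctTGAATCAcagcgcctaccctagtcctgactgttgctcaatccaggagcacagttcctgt
Itgax, chr7:128129300-128129599, plus strand: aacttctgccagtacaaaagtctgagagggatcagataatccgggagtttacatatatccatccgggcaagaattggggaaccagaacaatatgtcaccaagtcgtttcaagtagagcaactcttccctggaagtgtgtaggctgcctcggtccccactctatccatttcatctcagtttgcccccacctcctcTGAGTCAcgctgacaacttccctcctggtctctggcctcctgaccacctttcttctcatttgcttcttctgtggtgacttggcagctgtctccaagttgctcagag
Mmp12, chr9:7347124-7347423, plus strand: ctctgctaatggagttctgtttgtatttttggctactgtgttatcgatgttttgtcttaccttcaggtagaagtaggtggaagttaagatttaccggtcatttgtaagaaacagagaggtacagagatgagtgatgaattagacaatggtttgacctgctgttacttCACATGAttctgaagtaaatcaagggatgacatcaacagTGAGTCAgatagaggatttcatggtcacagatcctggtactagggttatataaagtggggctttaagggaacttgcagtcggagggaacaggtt

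The AP-1 motif began at base 9 after the start in Gpnmb, and at 9, 56 and 44 bases before it in Trem2, Itgax and Mmp12. The capitals nearer the 5′ end in Mmp12 are the M-box on the minus strand, 83 bases before the start. It was in 1 of the 10 windows and 2.2% of all. The E-box CACGTG of MITF, TFEB and TFE3 was in 0 of the 10 and 9.73% of all. The PU.1 motif GAGGAAGT was in 2 of the 10, one of Mmp12 and one of Spp1, and 3.05% of all. The motifs do not overlap in these windows, and a match describes the letters and not a bound factor.

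Of the 10 genes, 9 were higher in each mimic liver than in each scramble liver and each PBS liver. Fabp5 was the exception. Groups were separate in either direction for 40.8% of all 13636 genes against scramble and 31.7% against PBS, and with the mimic higher for 21.6% and 17.2%. In the fit over all genes 9 of the 10 were called higher and 0 lower in each of the 2 comparisons, where 32.0% and 37.1% of all genes were called (17.3% and 20.0% higher). These contrasts chose the genes, so the counts stand as description, and both use the same mimic livers. Called means an adjusted p under 0.05 by limma. The median log2 change of the 10 genes was 2.05 against scramble and 1.99 against PBS, and that of all genes was 0.00 in both. In whole liver, more cells of a type and more RNA per cell cannot be told apart.

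**Figure D1:**
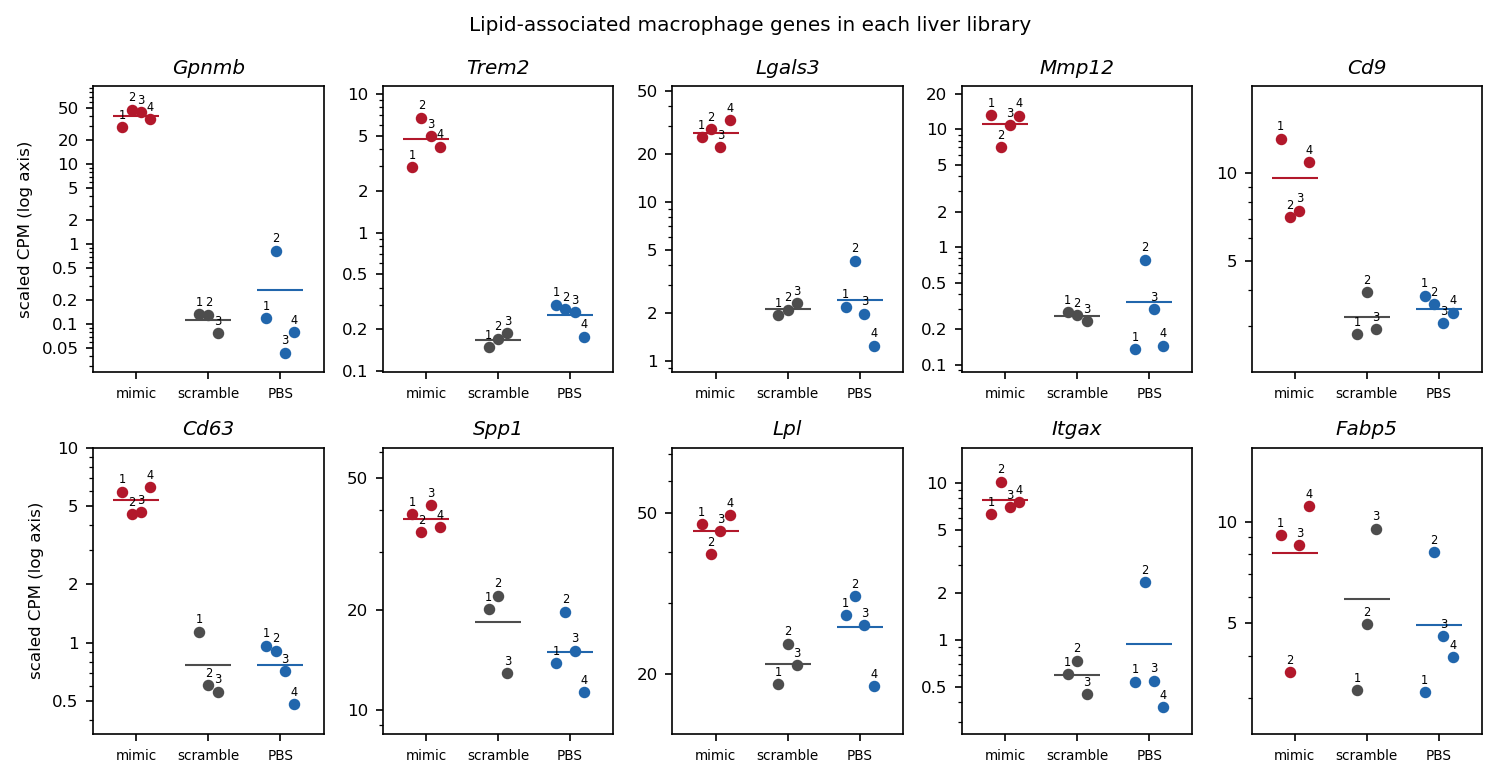
Scaled CPM (log axis) of the 10 genes in 11 liver libraries. Each point is a library with its replicate number, and lines mark group means. For 9 genes every mimic library lies above the other 7 libraries, and for Fabp5 the groups overlap.

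Trem2 (chromosome 17, 48346401 to 48354147, plus strand, GRCm38) encodes the lipid receptor of the programme. Its scaled CPM was 2.98, 6.72, 4.94 and 4.15 in mimic livers, 0.148, 0.172 and 0.187 in scramble livers, and 0.302, 0.279, 0.267 and 0.178 in PBS livers. The 4 mimic livers stood clear of the others, and the lowest of them was 9.87 times the highest other library. These values rested on 186 to 444 reads in mimic libraries, 10 to 13 in scramble libraries and 11 to 20 in PBS libraries. The mean was 4.70 ± 1.57 in mimic livers (SD, n = 4), 0.169 ± 0.0196 in scramble livers (SD, n = 3) and 0.256 ± 0.0545 in PBS livers (SD, n = 4). On the log2(scaled CPM + 1) scale mimic livers exceeded scramble livers by 2.24 ± 0.17 (SE) and PBS livers by 2.14 ± 0.16. That scale understates low genes: with a pseudocount of 0.25 in place of 1 the changes were 3.51 and 3.24.

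Gpnmb (chromosome 6, 49036546 to 49070929, plus strand) encodes a membrane glycoprotein of lysosomes and phagosomes and showed the widest gap of the 10. It had 29.3, 48.1, 45.3 and 36.6 scaled CPM in mimic livers, 0.133, 0.132 and 0.0780 in scramble livers, and 0.121, 0.838, 0.0445 and 0.0807 in PBS livers. Both control groups were close to the limit of detection, with 5 to 10 reads per scramble library and 3 to 45 per PBS library, and PBS replicate 2 was the highest of these 7 libraries. The mimic mean was 348 times the scramble mean and 147 times the PBS mean, or 486 times the mean of the PBS livers other than replicate 2. Fitted changes were 5.17 ± 0.20 (SE) and 5.02 ± 0.19 on the log2 scale, which placed Gpnmb at rank 6 of 13636 genes by change against scramble. Without PBS replicate 2 the change against PBS was 5.21.

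Lgals3 (chromosome 14, 47367751 to 47386160, plus strand) encodes galectin 3, a lectin that marks damaged lysosomes and is secreted by activated macrophages. Its values were 25.5, 28.5, 22.1 and 32.5 scaled CPM in mimic livers, 1.93, 2.10 and 2.29 in scramble livers, and 2.19, 4.26, 1.97 and 1.24 in PBS livers. The mimic livers differed among themselves by less than 1.5-fold, and the nearest other library was again PBS replicate 2. The fitted log2 difference from scramble livers was 3.17 ± 0.23 (SE) and that from PBS livers 3.1 ± 0.21.

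Cd9 and Cd63 encode tetraspanins, membrane proteins that organise other surface proteins, and CD63 sits mainly in late endosomes and lysosomes. Cd9 (chromosome 6, 125460266 to 125494791, minus strand) was at 13.2, 7.08, 7.46 and 10.9 scaled CPM in mimic livers, 2.82, 3.93 and 2.93 in scramble livers, and 3.81, 3.57, 3.07 and 3.34 in PBS livers. Cd63 (chromosome 10, 128900989 to 128912822, plus strand) was at 5.97, 4.57, 4.67 and 6.30 in mimic livers, 1.14, 0.607 and 0.562 in scramble livers, and 0.965, 0.912, 0.712 and 0.484 in PBS livers. For both genes mimic replicates 1 and 4 were the higher pair of the 4, and no mimic library reached down to a control library. Log2 changes against scramble and PBS were 1.30 ± 0.18 (SE) and 1.22 ± 0.17 for Cd9. For Cd63 they were 1.85 ± 0.15 (SE) and 1.85 ± 0.14.

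Itgax (chromosome 7, 128129547 to 128150657, plus strand) encodes CD11c, an integrin subunit of dendritic cells that lipid-associated macrophages also carry. It had 6.35, 10.2, 7.05 and 7.58 scaled CPM in mimic livers, 0.608, 0.739 and 0.452 in scramble livers, and 0.543, 2.33, 0.549 and 0.371 in PBS livers. PBS replicate 2 lay far above the other PBS libraries and far below the mimic livers. On the log2 scale Itgax was up by 2.45 ± 0.26 (SE) against scramble and 2.26 ± 0.24 against PBS, or 2.55 against PBS without that replicate.

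Mmp12 and Spp1 encode secreted proteins: macrophage elastase, and osteopontin, a matrix protein and cytokine that bile duct cells also make. Mmp12 (chromosome 9, 7344381 to 7369499, plus strand) was at 13.2, 7.05, 10.8 and 13 scaled CPM in mimic livers, 0.282, 0.264 and 0.234 in scramble livers, and 0.136, 0.782, 0.297 and 0.145 in PBS livers. Spp1 (chromosome 5, 104435118 to 104441050, plus strand) was at 38.9, 34.3, 41.4 and 35.5 in mimic livers, 20.1, 22.1 and 12.9 in scramble livers, and 13.8, 19.8, 15.1 and 11.3 in PBS livers. Mmp12 was under 1 scaled CPM in every control liver, while Spp1 was at 11.3 or more there. For Mmp12 the log2 differences from scramble and PBS were 3.22 ± 0.20 (SE) and 3.15 ± 0.18. Those of Spp1 were 1.02 ± 0.19 (SE) and 1.29 ± 0.17, and the lowest mimic liver was 1.55 times the highest other one.

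Lpl and Fabp5 handle fatty acids: lipoprotein lipase releases them from circulating triglycerides, and FABP5 carries them inside cells. Lpl (chromosome 8, 68880491 to 68907448, plus strand) was at 46.9, 39.6, 45.0 and 49.3 scaled CPM in mimic livers, 18.9, 23.8 and 21.0 in scramble livers, and 28.0, 31.2, 26.4 and 18.7 in PBS livers. Fabp5 (chromosome 3, 10012548 to 10016607, plus strand) was at 9.13, 3.59, 8.53 and 11.1 in mimic livers, 3.17, 4.96 and 9.53 in scramble livers, and 3.14, 8.12, 4.59 and 3.97 in PBS livers. The Lpl groups were separate by a narrow margin, the lowest mimic liver being 1.27 times the highest PBS liver. Fabp5 varied about 3-fold within the mimic and the scramble group alike, and its groups overlapped. For Lpl the log2 differences from scramble and PBS were 1.06 ± 0.15 (SE) and 0.79 ± 0.14. For Fabp5 they were 0.42 ± 0.38 (SE) and 0.59 ± 0.35. Single libraries moved the Fabp5 change against scramble to 0.11 (without scramble replicate 1), 0.25 (without mimic replicate 4), 0.72 (without mimic replicate 2) and 0.78 (without scramble replicate 3), and that against PBS to 0.89 (without mimic replicate 2). Near-identical copies of Fabp5 lie elsewhere in the mouse genome, so its count may hold or lack reads of theirs and is uncertain.

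The scramble oligomer alone was compared with PBS as a test, since this contrast did not choose the genes. None of the 10 genes was called, with limma adjusted p of 0.9997 for each, and their log2 changes lay between -0.27 ± 0.15 (SE) for Lpl and 0.27 ± 0.19 for Spp1. Over all 13636 genes 0 were called (0%), and 434 had an unadjusted p under 0.05 by limma. The median change of the 10 genes was -0.07, against 0.00 for all genes, and 0 of the 10 had separate groups, against 4.72% of all genes. The widest error was that of Fabp5, 0.17 ± 0.38. Without PBS replicate 2 the signs of Gpnmb, Lgals3, Mmp12, Cd63 and Itgax turned, with changes of 0.036 to 0.16. Gpnmb, Trem2, Mmp12, Cd63 and Itgax averaged under 1 scaled CPM in both groups, where the log2(scaled CPM + 1) scale understates a change. For these genes the lack of calls cannot show that the oligomer did nothing. With all libraries their changes, in that order, were -0.15, -0.10, -0.064, -0.0050 and -0.19 as fitted. With a pseudocount of 0.25 in place of 1 they were -0.29, -0.27, -0.088, -0.014 and -0.25.

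**Figure D2:**
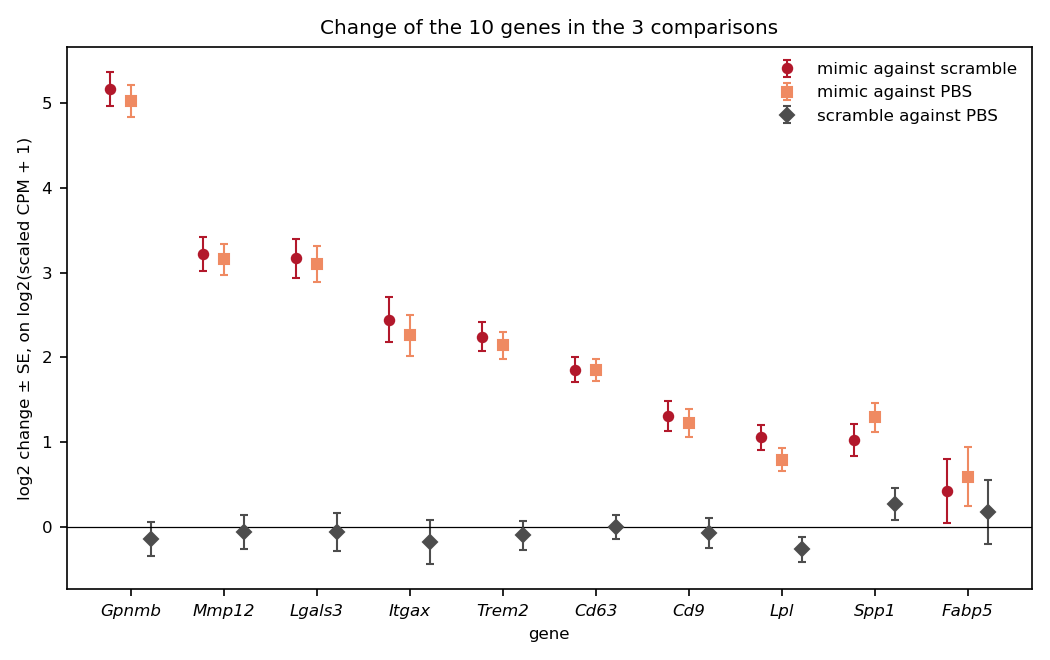
Log2 change ± SE of each gene on log2(scaled CPM + 1) in the 3 comparisons, ordered by the change for mimic against scramble. The 2 mimic comparisons run from 5.17 for Gpnmb down to 0.42 for Fabp5, and scramble against PBS stays between -0.27 and 0.27. This scale understates changes of the genes that were low in both control groups.

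The order of the 10 genes by level, taken as mean scaled CPM per kilobase of transcript, differed between groups. In mimic livers Spp1 led at 26.6, followed by Lgals3 at 19.1 and Lpl at 11. Gpnmb came next at 10.8, then Fabp5 at 8.20, Cd9 at 7.86, Cd63 at 4.85, Trem2 at 4.45, Mmp12 at 3.05 and Itgax at 1.93. From Lpl down, each gene lay within the SDs of the next in this order.

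In scramble livers Spp1 led as well, at 13 scaled CPM per kilobase, but Fabp5 at 5.97, Lpl at 5.16 and Cd9 at 2.63 followed. Gpnmb was last of the 10 there, at 0.0309. In PBS livers Spp1 was at 10.6, Lpl at 6.34 and Fabp5 at 5.02, and Gpnmb was last at 0.0732. Trem2, Itgax, Mmp12 and Gpnmb were each under 0.25 scaled CPM per kilobase in both control groups.

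Within the mimic group the genes did not share an order of libraries. Gpnmb, Trem2 and Itgax were highest in replicate 2 and lowest in replicate 1. Mmp12, Cd9, Cd63, Spp1, Lpl and Fabp5 were lowest in replicate 2. Lgals3 was highest in replicate 4 and lowest in replicate 3. Genes outside the set also differed among the mimic livers. The Kupffer cell lectin gene Clec4f had 2.02, 8.37, 5.54 and 2.93 scaled CPM in mimic replicates 1 to 4, and the macrophage gene Adgre1 had 4.09, 9.29, 7.42 and 4.32. The acute phase genes Lcn2, at 2287, 727, 690 and 1552, and Saa1, at 7489, 3008, 3626 and 6231, were highest in replicates 1 and 4. With 4 libraries this is a description, and its relation to the 10 genes was not tested. With mimic replicates 1 and 4 left out, the log2 changes against scramble were 5.42 for Gpnmb, 3.07 for Lgals3, 2.95 for Mmp12, 2.57 for Itgax, 2.53 for Trem2, 1.68 for Cd63, 1.03 for Spp1, 0.98 for Cd9, 0.96 for Lpl and 0.047 for Fabp5. Against PBS they were, in the same order of genes, 5.27, 3.0, 2.89, 2.39, 2.43, 1.68, 1.30, 0.90, 0.70 and 0.22. Fabp5 moved the most in proportion, and the changes of the other 9 genes lay between 0.70 and 5.42.

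**Figure D3:**
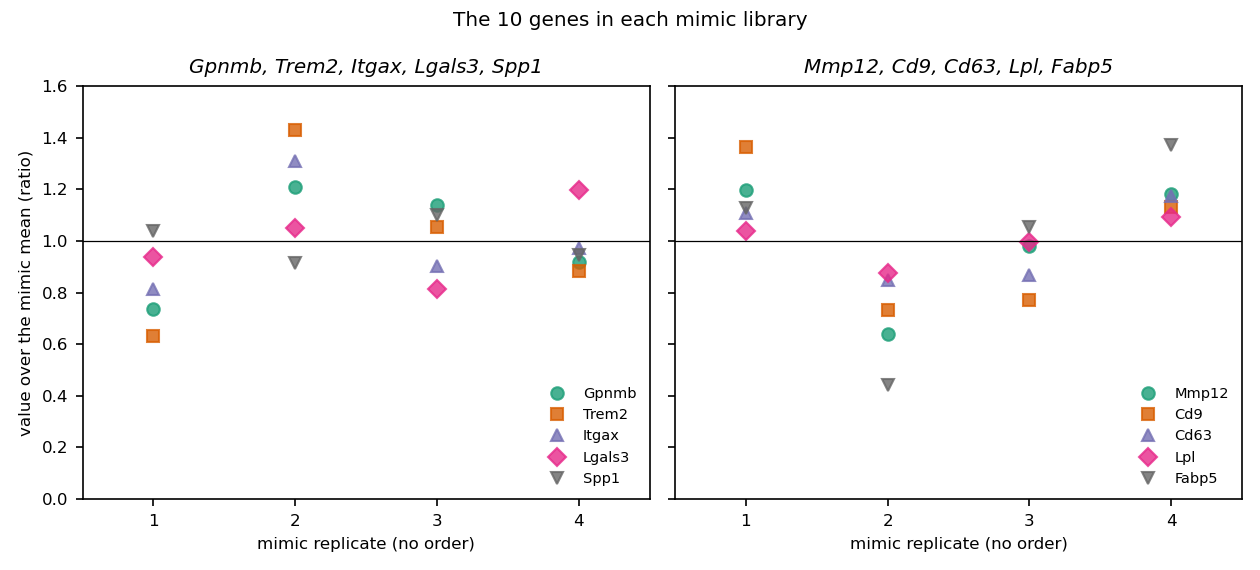
Each gene's scaled CPM over its mean in the mimic group, for the 4 mimic libraries (replicate numbers have no order). Gpnmb, Trem2 and Itgax are highest in replicate 2, where Mmp12, Cd9, Cd63, Spp1, Lpl and Fabp5 are lowest.

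Over the 11 libraries the pairs among the 9 genes other than Fabp5 (36 pairs) had Pearson correlations of log2(scaled CPM + 1) from 0.861 to 0.988, and Fabp5 correlated with them at 0.346 to 0.546. The gap between mimic livers and the other 7 sets most of this, so these values are a description. By the same measure, of all other genes averaging 1 scaled CPM or more, the 5 most like Gpnmb were Slfn4, Chil3, Slfn1, Myo5a and Capg (0.992 to 0.996). The 5 most like Trem2 were Chil3, C3ar1, Soat1, Slfn1 and Cd84 (0.991 to 0.995). The 5 most like Mmp12 were Lcn2, Adam8, Saa2, Saa3 and Orm2 (0.993 to 0.996). Chil3, a lectin gene of monocytes and alternatively activated macrophages, averaged 6.70 scaled CPM in mimic livers, 0.0330 in scramble livers and 0.113 in PBS livers. Values of Saa2 may include reads of its near-copy Saa1.

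Further genes of the lipid-associated programme were also higher in mimic livers. For this and the lists below, 17.3% of all genes were called higher and 14.7% lower against scramble. Against PBS these shares were 20.0% and 17.1%. Of 60 listed genes 53 were measured, and 37 were higher and 1 lower in mimic than in scramble livers (limma, adjusted p under 0.05), with a median log2 change of 0.86 against 0.00 for all genes. Against PBS 40 were higher and 2 lower, and between scramble and PBS 0 were called. With mimic replicates 1 and 4 left out 37 of these 38 genes and 38 of these 42 were called in the same direction. The actin-capping gene Capg averaged 8.00 ± 0.519 scaled CPM in mimic livers (SD, n = 4), 0.850 ± 0.158 in scramble livers (SD, n = 3) and 0.937 ± 0.531 in PBS livers (SD, n = 4), a log2 change of 2.28 ± 0.16 (SE) against scramble with an adjusted p of 8.1e-06 by limma. The membrane protein gene Emp1 rose by 2.08 on the log2 scale, the myeloid receptor gene Cd300lf by 1.69 and the urokinase receptor gene Plaur by 1.40, each with an adjusted p of 3.2e-05 or less by limma. Capg, Emp1 and Plaur averaged under 1 scaled CPM in both control groups. Such genes may be in the table only through the mimic livers, so their p-values and the counts of this list are a description. The one that was lower, the lysosomal gene Creg1, changed by -0.33 but by 0.25 when values were divided by library totals. The apolipoprotein gene Apoe, which hepatocytes also express and which made up 56.4% to 67.9% of the summed list, averaged 6462 in mimic, 8049 in scramble and 7695 in PBS livers and was not called.

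Among partners of TREM2, 15 of 23 measured genes were higher and 0 lower in mimic than in scramble livers, and the same numbers held against PBS. Tyrobp, the signalling adaptor, averaged 12.0 ± 2.84 scaled CPM in mimic livers, 3.49 ± 0.697 in scramble livers and 4.55 ± 1.31 in PBS livers, a log2 change of 1.52 ± 0.20 (SE) against scramble (limma adjusted p 3.0e-04). The phosphatase gene Inpp5d rose by 1.27 and the phospholipase gene Plcg2 by 1.07. Treml2, a neighbour and relative of Trem2, rose by 0.92, with means of 1.07 scaled CPM in mimic livers, 0.0933 in scramble livers and 0.153 in PBS livers, a range where the log2(scaled CPM + 1) scale understates a change. The median of the list was 0.59.

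Among lysosomal genes and the MITF and TFE factors that control them, 14 of the 33 measured were called higher and 2 called lower, and the median was 0.19. If scaled by library totals 22 were called higher and 0 lower, and the median was 0.73, against 0.49 for all genes. Of all 13636 genes 5498 were then called higher and 110 lower. Psap, the precursor of the saposins, averaged 420 ± 35.2 scaled CPM in mimic livers, 198 ± 8.81 in scramble livers and 213 ± 32.1 in PBS livers and rose by 1.08 ± 0.12 (SE) against scramble (limma adjusted p 9.8e-05). The galactosidase gene Gla rose by 1.02 and the protease gene Ctsc by 0.92. The cholesterol exporter gene Npc1 and the lysosomal membrane gene Scarb2 were the 2 lower ones, at -0.47 and -0.35, and at 0.11 and 0.22 with library totals.

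Relatives of the 10 genes gave mixed counts for mimic against scramble, where 17.3% of all genes were called higher and 14.7% lower. Of 17 other tetraspanin genes 7 were higher, with the leukocyte gene Cd53 at 1.33, and 1, Tspan12, was lower, at -0.50 (0.08 with library totals). Of 8 other galectins and galectin 3 partners 2 were higher, Lgals3bp at 1.46 and Lgals9 at 0.75. Of 16 genes of other integrins and osteopontin receptors 8 were higher and 0 lower, among them the myeloid genes Itgam at 1.86 and Itgb2 at 1.91, which the monocyte and macrophage lists hold too. Of 11 other matrix metalloproteinases and inhibitors 7 were higher and 1 lower. The inhibitor gene Timp1 averaged 3.26 ± 1.66 scaled CPM in mimic livers, 0.0294 ± 0.0260 in scramble livers and 0.0535 ± 0.0320 in PBS livers, a change of 1.96 ± 0.24 (SE) against scramble with an adjusted p of 1.8e-04 by limma. Mmp9 and Mmp14 rose by 0.92 and 0.99 and the inhibitor gene Timp3 fell by 0.94. Timp1 and Mmp9 were so low in controls that they may be in the table only through the mimic livers. Their calls, and the p-value of Timp1, are therefore a description.

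Of 18 regulators and relatives of lipoprotein lipase 1 was higher and 3 were lower in mimic than in scramble livers, or 7 and 1 with library totals. With library totals 5498 of all 13636 genes were called higher and 110 lower. Pcsk6, whose protease cuts lipases, fell by 0.88, hepatic lipase (Lipc) by 0.59 and endothelial lipase (Lipg) by 1.09. Of 22 genes of macrophage lipid uptake, storage and efflux 7 were higher and 2 lower, with a list median of -0.19. If scaled by library totals that median was 0.36, against 0.49 for all genes. The scavenger receptor gene Msr1 averaged 9.97 ± 0.199 scaled CPM in mimic livers, 3.57 ± 0.219 in scramble livers and 4.38 ± 0.585 in PBS livers and rose by 1.26 ± 0.09 (SE) against scramble (limma adjusted p 6.5e-06). Soat1, which makes cholesteryl esters, rose by 1.01. The liver and intestinal fatty acid carriers Fabp1 and Fabp2, which hepatocytes express, were the 2 that fell, by 1.41 and 1.20.

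Macrophage, monocyte and neutrophil markers were mostly higher in mimic livers, while resident Kupffer cell markers were more often lower than higher. Of 20 genes shared by macrophages 15 were higher and 0 lower in mimic than in scramble livers, with a median of 1.27, and their summed level was 507 to 684 scaled CPM in mimic livers, 211 to 250 in scramble livers and 183 to 369 in PBS livers. Cd68, a macrophage lysosome gene, rose by 1.93 and the pore-forming gene Mpeg1 by 2.28. Of 16 monocyte genes 13 were higher and 0 lower, with a median of 1.33. Their sum without Fn1, which hepatocytes make, was 47.0 to 69.1, 14.6 to 43.7 and 21.9 to 45.4 in mimic, scramble and PBS livers. Of 16 listed neutrophil genes 9 were not in the table, Ly6g and Mpo among them. All 7 measured ones were called higher, Mmp9 among them. Their sum without Lcn2 was 17.1 to 36.9 in mimic livers, 1.29 to 1.87 in scramble livers and 1.86 to 2.79 in PBS livers. Mmp9 averaged 1.13, 0.126 and 0.216 in mimic, scramble and PBS livers. Genes this low in controls may be in the table only through the mimic livers, so the count is a description. Of 16 genes of resident Kupffer cells 2 were higher and 7 lower, and the list median was -0.37. Scaled by library totals it was 0.060, against 0.49 for all genes, and 4 were higher and 5 lower. Of all genes 5498 were then called higher and 110 lower. The sum of these 16 genes was 237 to 278 in mimic livers, 290 to 472 in scramble livers and 373 to 473 in PBS livers. Clec4f averaged 4.71, 27.9 and 36.8 scaled CPM in mimic, scramble and PBS livers, and Timd4 0.155, 2.84 and 3.77. Log2 changes against scramble were -2.42 for Clec4f, -1.69 for Timd4 and -1.69 for Fcna. The 2 higher genes were Il18bp, at 1.51, and Clec4n, at 0.89. The part of these cells in the levels of the 10 genes was not tested.

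Other cell types were followed by their markers as well, for mimic against scramble, where 17.3% of all genes were called higher and 14.7% lower. With lists this short, counts near those shares say little. Of 8 dendritic cell genes 2 were higher and 1 lower, and their sums overlapped between groups. Of 17 genes of stellate cells and fibroblasts 9 were higher and 2 lower, with a sum of 247 to 439 in mimic livers, 159 to 170 in scramble livers and 112 to 174 in PBS livers. Bile duct cells, a source of Spp1, had 2 of 5 genes higher and 1, Krt23, lower. Of 10 adipocyte and muscle genes, listed because those tissues make Lpl, 7 were not in the table, Adipoq, Plin1 and Ckm among them. The 3 measured, Cidec, Car3 and Cfd, were lower, and Car3 averaged 491 scaled CPM in mimic, 1623 in scramble and 1354 in PBS livers. With the other 7 missing, these 3 cannot show whether the part of those tissues differed. Of 15 sinusoidal endothelial genes 2 were higher and 1 lower. Of 13 hepatocyte genes 0 were higher and 1, Cyp2e1, was lower, or 2 and 0 with library totals. With that scaling 5498 of all 13636 genes were called higher and 110 lower. Of 21 lymphocyte genes 1 was measured, and it was not called.

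**Figure D4:**
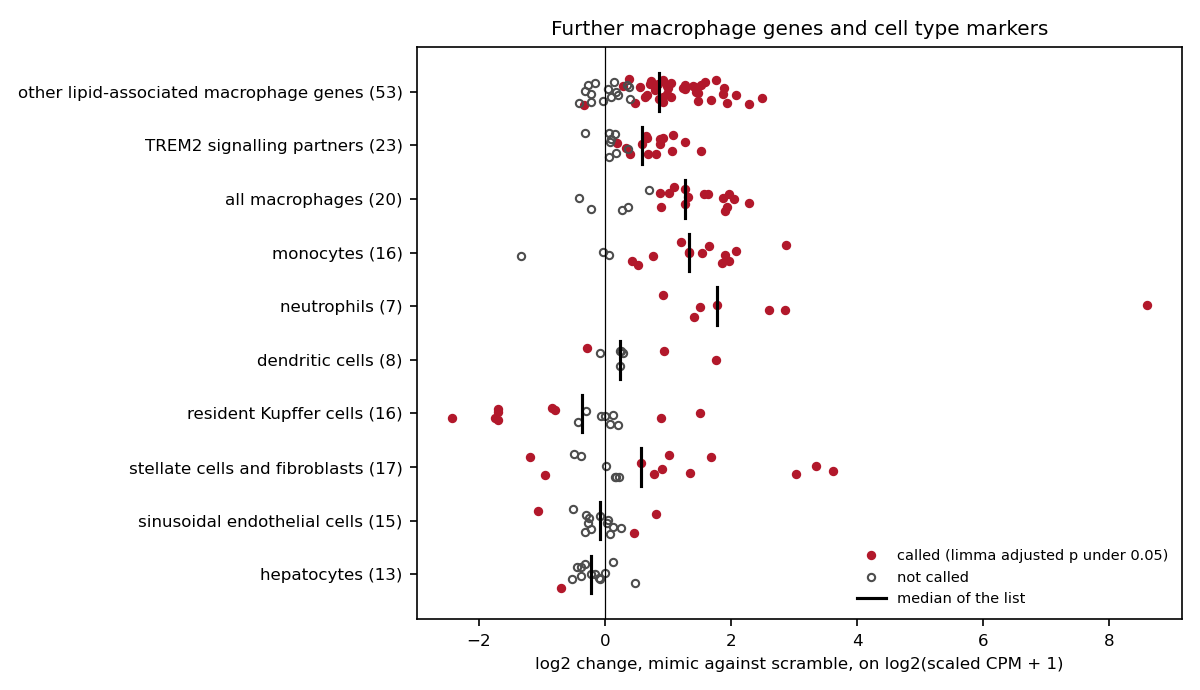
Log2 change for mimic against scramble, on log2(scaled CPM + 1), of each measured gene in 10 of the lists, with the number of genes in brackets. Filled points passed an adjusted p of 0.05 by limma and bars are list medians. These lie at 0.86 for other lipid-associated genes and -0.37 for resident Kupffer cells. If scaled by library totals the Kupffer cell median is 0.060, against 0.49 for all genes.

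Set against the summed macrophage genes of the same library, a sum that was itself higher in mimic livers, 6 of the 10 genes had all mimic livers above all other livers, and so did 1.26% of all 13636 genes. Gpnmb was 5.79% to 8.12% of that sum in mimic livers and 0.0180% to 0.227% in the other 7. Trem2 was 0.587% to 0.982% and 0.0686% to 0.108%, and Lgals3 3.96% to 5.99% and 0.679% to 1.15%. Mmp12, Cd63 and Itgax were separate too, while Cd9, Spp1, Lpl and Fabp5 overlapped. The same contrast chose the genes, so this is a description.

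PBS replicate 2 was the highest PBS library for 7 of the 10 genes: Fabp5, Gpnmb, Itgax, Lgals3, Lpl, Mmp12 and Spp1. Its macrophage sum was 369, against 183 to 284 in the other PBS livers, and its dendritic cell sum was the highest of all 11 libraries. Without it the log2 changes for mimic against PBS were 3.33 for Lgals3, 3.30 for Mmp12, 2.15 for Trem2, 1.89 for Cd63, 1.42 for Spp1, 1.24 for Cd9, 0.88 for Lpl and 0.82 for Fabp5, beside those of Gpnmb and Itgax given above. Each of the 10 was larger than with that library. The part of these cells in that library's values was not tested.

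The scaling chosen by the authors bears on the sizes of these changes. With values divided by library totals the median of all genes moved to 0.49 (mimic against scramble) and 0.51 (mimic against PBS), and calls against scramble moved to 5498 higher and 110 lower, where the deposited scaling gave 2363 and 2000. Beside those medians, and not reduced by them, the log2 changes of the 10 genes were 0.94 (Fabp5) to 5.56 (Gpnmb) and 1.12 to 5.43, and each stayed higher in the mimic group. All 10 were then called higher against scramble, Fabp5 included, where 5498 of all 13636 genes were. The same contrast chose the genes, so this count is a description.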

How the data were processed

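Liver RNA was extracted from frozen tissue and sequenced as stranded mRNA libraries with paired reads of 48 bases, per the labels' protocols. The submitters' processing notes name Bowtie, SAMtools 0.1.19, bedtools 2.17.0 and edgeR 3.8.6 with the build mm10. Their settings and the gene annotation are not given in the sources used here, nor whether counting used strand. The deposited table holds a scaled signal, here called scaled CPM, for 13636 genes. Its label points to a filter by level in some libraries. A gene near zero in controls may thus have entered through the mimic livers alone. Gpnmb, Trem2, Mmp12, Cd63 and Itgax averaged under 1 scaled CPM in both control groups and may have entered in this way. The same holds for Chil3, Timp1, Treml2, Capg, Emp1, Plaur and Mmp9, among others. Within each library every value was a whole multiple of one step, to a tolerance of 1e-06. Read numbers were inferred by taking each step as a single read. The deposited scaling was kept.

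Changes were fitted with limma 3.58.1 in R 4.3.3 on log2(value + 1) over all 3 groups together, with a mean-variance trend, and p-values were adjusted by the Benjamini-Hochberg method over 13636 genes. The script was first tested on simulated data. Groups came from the titles. The 10 genes, the gene lists (written from memory) and the alternatives were chosen with earlier results of these data known. Named from each list were up to 4 called genes with the smallest p against scramble, and all those in the rarer direction where there were 5 or fewer. Apoe and, within mimic livers, Clec4f, Adgre1, Lcn2 and Saa1 were named after their values were seen. Gene positions and UTRs were taken from GENCODE M21 (GRCm38, the assembly of mm10) and sequences from RefSeq on GRCm38.p6. The design had assumed CPM. Of all rows 54 were identical to another, none of them one of the 10 genes. Read numbers given for low genes show how much counting error their values carry.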

Additional observations from a re-analysis of the deposited data

Results flagged for a closer look

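A library far from the others of its group was looked for with Dixon's criterion (95% level) in 60 groups of 4, which flagged 8, where chance flags about 1 in 20. Of the 10 genes, 2 were flagged, both in PBS replicate 2: Gpnmb at 0.838 scaled CPM, against 0.0445 to 0.121 in the other PBS livers, and Itgax at 2.33, against 0.371 to 0.549. The same library had a dendritic cell sum of 403, against 66.1 to 116, and a lymphocyte gene at 2.29, against 0.565 to 0.709. Its monocyte sum was 566, against 618 to 628, and Fn1 made up most of that sum. In PBS replicate 4 the summed TREM2 partners were 7542, against 8699 to 8929, and the summed genes of macrophage lipid uptake were 9517, against 10593 to 10814. Apoe, which averaged 7695 in PBS livers and which hepatocytes also express, made up most of the TREM2 partner sum. In mimic replicate 4 the summed other tetraspanins were 358, against 366 to 368 in the other mimic livers.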

How the results depend on the processing

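The 10 genes' changes in the mimic comparisons kept their direction in all 360 values under 18 alternatives, and 327 moved by less than the replicate SD. Many of these values could not move. Leaving out a PBS library cannot change mimic against scramble, nor a scramble library mimic against PBS. Fitting 2 groups alone or filtering genes by mean level also leaves the changes as they are. The same contrasts chose the genes, so this is a description. Their median was 2.87 (mimic against scramble) and 2.73 (mimic against PBS) with a pseudocount of 0.25, and 2.43 and 2.38 with library totals. Without one library it ranged from 2.0 to 2.11 against scramble, from 1.94 to 2.05 against PBS, and from -0.13 to 0.062 for scramble against PBS.

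Genes called without one library ranged from 2824 (without scramble replicate 1) to 4904 against scramble, from 3758 to 5681 against PBS, and from 0 to 1 for scramble against PBS. Without mimic replicates 1 and 4 the numbers were 2548 and 2894. With the 2 groups fitted alone 5 genes were called for scramble against PBS. With library totals 5498 genes were higher and 110 lower against scramble, and 6882 and 120 against PBS. Quantile normalization gave 1985 and 2249, and 2320 and 2620. The causes were not tested.

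Directions turned with library totals against scramble and PBS for Creg1 (0.25 and 0.10), Npc1 (0.11 and 0.27), Scarb2 (0.22 and 0.17), Tspan12 (0.081 and 0.12) and Zbtb46 (0.026 and 0.17), and against PBS for Cyp2e1 (0.057) and Lipc (0.094). With that scaling the medians of all genes were 0.49 against scramble and 0.51 against PBS, and each of these values lay below them. For scramble against PBS, Cd63 was at 0.0047 with library totals and at -0.0050 as fitted. Leaving out single libraries also turned directions in that comparison: changes ranged from -0.23 to 0.043 for Gpnmb, -0.25 to 0.16 for Lgals3, -0.13 to 0.082 for Mmp12, -0.15 to 0.078 for Cd63, -0.32 to 0.10 for Itgax and -0.19 to 0.48 for Fabp5. The highest value was that without PBS replicate 2 for Gpnmb, Lgals3, Mmp12 and Itgax.

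Deviations of same-numbered libraries of different groups correlated at -0.28 to 0.26, and those of differently numbered ones at -0.40 to 0.35. With so few libraries this cannot show whether the numbers pair the samples. With the replicate block 3808, 4584 and 0 genes were called in the 3 comparisons. The 2 count tests planned on reads recovered from the steps were not run, because a check on the recovered reads accepted few of the columns. Genes under about 1 scaled CPM in controls, such as Gpnmb at 3 to 45 reads, limit the precision of their ratios.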
